A study of Homo sapiens with 4 samples.

Results

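The inflammatory chemokine and cytokine genes comprise 10 genes chosen by symbol, CXCL1, CXCL2, CXCL3, CXCL8, CXCL10, CXCL11, CCL5, CCL20, IL6 and IL1A, out of the 53826 entities listed in each table. All 10 were found. The list was drawn up with earlier results of these data known, so shares of other entities set beside it are a description and not independent support. They were measured by mRNA sequencing in PK-1 cells, a human pancreatic ductal adenocarcinoma line, with 1 library for each of 4 conditions. Stable SPRR1A cells carried a retroviral vector (pMXs) with a FLAG-tagged cDNA of SPRR1A, a cornified envelope protein of squamous epithelium, and stable DsRed cells carried the same vector with a red fluorescent protein. Transient SPRR1A cells were transfected with a plasmid (pCAG) carrying the tagged SPRR1A, and transient GFP cells with that plasmid carrying green fluorescent protein. Both controls therefore express a foreign fluorescent protein, and a library of untreated PK-1 cells was not analysed here. The values are log2 TPM, that is, reads per transcript length scaled to a library total of 1000000. The values have a floor at 0, so a gene listed at 0 has a TPM of 1 or less. Where 4 values are given for a gene, they run from the stable cells (SPRR1A, then DsRed) to the transient cells (SPRR1A, then GFP). With 1 library per condition no difference has a replicate check, so counts past the study's 2-fold rule (a log2 difference above 1 or below -1) are descriptions of these libraries.

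Chemokines are small secreted proteins that guide white blood cells along concentration gradients. CXCL1, CXCL2, CXCL3 and CXCL8 act on the receptor CXCR2 and draw neutrophils. CXCL10 and CXCL11 are interferon-induced ligands of CXCR3 on T cells, CCL5 draws T cells and monocytes, and CCL20 is the ligand of CCR6. Interleukin 6 signals through IL6R and IL6ST, whereas interleukin 1 alpha (IL1A) is an alarmin kept in epithelial cells that signals through IL1R1 when it is released. Many of these genes are classical targets of the transcription factor NF-kappaB, often together with AP-1, and tumor cells of the pancreas are a known source of several of them.

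The promoters of the members are shown first, because CXCL1, CXCL2 and CXCL3 share nearly the same sequence but not the same level in these libraries. Those of CXCL10, CXCL11 and CCL5 are not printed. The 120 bases before the RefSeq start site (GRCh38.p14) are given 5′ to 3′ on the gene's strand. Capitals mark matches, on either strand, to GGNNTTTCC, a form of the NF-kappaB site, or to TGANTCA, the AP-1 site. The windows lie at chr4:73869273-73869392 (plus strand) for CXCL1, chr4:74099196-74099315 (minus) for CXCL2, chr4:74038690-74038809 (minus) for CXCL3, chr4:73740449-73740568 (plus) for CXCL8, chr2:227813722-227813841 (plus) for CCL20, chr7:22727080-22727199 (plus) for IL6 and chr2:112784494-112784613 (minus) for the first of the start sites listed for IL1A.
CXCL1: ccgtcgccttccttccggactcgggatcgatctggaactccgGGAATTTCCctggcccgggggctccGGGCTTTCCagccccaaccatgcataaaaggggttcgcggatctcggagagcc
CXCL2: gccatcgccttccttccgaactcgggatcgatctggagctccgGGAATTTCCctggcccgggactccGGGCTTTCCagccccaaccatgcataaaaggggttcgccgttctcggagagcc
CXCL3: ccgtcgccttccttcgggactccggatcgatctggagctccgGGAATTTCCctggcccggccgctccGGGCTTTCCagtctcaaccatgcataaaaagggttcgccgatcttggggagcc
CXCL8: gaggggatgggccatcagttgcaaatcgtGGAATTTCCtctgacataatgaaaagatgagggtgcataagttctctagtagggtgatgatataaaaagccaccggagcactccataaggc
CCL20: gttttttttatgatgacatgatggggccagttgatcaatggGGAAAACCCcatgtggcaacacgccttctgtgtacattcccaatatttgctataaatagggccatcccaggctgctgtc
IL6: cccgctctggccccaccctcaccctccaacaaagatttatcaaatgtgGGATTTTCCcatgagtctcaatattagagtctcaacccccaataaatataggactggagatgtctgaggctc
IL1A: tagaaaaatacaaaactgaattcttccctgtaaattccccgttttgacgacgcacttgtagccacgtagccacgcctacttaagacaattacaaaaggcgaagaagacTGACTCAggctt

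The windows of CXCL1 and CXCL2 were identical at 113 of 121 aligned positions (93.4%), those of CXCL1 and CXCL3 at 90.8%, and those of CXCL2 and CXCL3 at 88.4%. Every other pair of members lay between 43.5% and 54.1%. Each of the 3 related promoters held the NF-kappaB letters at 2 places, of which 1 began 53 bases before the start site in all of them (position -53). Of the 9 members with an entry in the promoter table, 7 held these letters, namely CXCL1, CXCL2, CXCL3, CXCL8, CXCL11, CCL20 and IL6. Over all 35116 promoters in the table, 2.76% held them in a window of this length. The AP-1 letters were found for CXCL11 and IL1A, against 3.34% of all promoters, and the letters GAAANNGAAA of the interferon-stimulated response element were found for 0 of the 9, against 1.39%. The letters were chosen with these sequences in view, so the matches are a description of the windows. Bases further upstream were not searched, so a gene without a match here may hold one there. Of the windows not printed, that of CXCL10 held no match and that of CXCL11 held the NF-kappaB and the AP-1 letters. CCL5 was not matched in the promoter table.

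The libraries were checked against their labels. SPRR1A itself was at a log2 TPM of 10.93, 0.75, 16.60 and 3.56, so it was high where it had been introduced. Its share of all TPM was 9.90% in transient SPRR1A cells, and the median log2 difference between SPRR1A and control, over well expressed entities (both TPM values 5 or more), was -0.18 in the transient model and 0.06 in the stable model. Between the models this median was 0.12 for the controls and -0.11 for the SPRR1A libraries. Values given as centred have this median subtracted. Between 12964 and 13558 entities were above the floor per library, and depth in reads is unknown. Of 7 markers of epithelial cells, all were above the floor in each library except MUC1 in stable DsRed cells. KRT8 and KRT18, keratins of simple epithelium, were the highest of them, at log2 TPM values from 12.23 to 12.94. MUC1, picked by name once its values were known, was the lowest, at 0.51, 0, 0.90 and 0.80. Of 8 markers of immune cells, 7, including PTPRC, were listed at 0 in all 4 libraries, and their summed TPM, which was that of the lysosomal CD68 alone, ran from 15.9 to 30.0. Of 8 markers of fibroblasts and endothelium, COL1A1 was above the floor at 1.96 to 2.62, and the other 7, including COL1A2, were listed at 0.

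In PK-1 cells, 7 of the 10 genes were above the floor in at least 1 library, and IL1A dominated them. Its log2 TPM was 6.10 and 5.92 in the stable cells (SPRR1A and DsRed) and 7.38 and 7.44 in the transient cells (SPRR1A and GFP). Both transient libraries were above both stable libraries. IL1A made up between 79.9% and 84.1% of the summed TPM of the members, and that sum was 81.8, 72.0, 205.9 and 217.4 in the 4 libraries. The order of the levels per transcript length was IL1A, CXCL2, CCL5 and CXCL8 in every library, with CXCL3 and then CCL20 following in the transient ones. The step from IL1A to CXCL2 exceeded 3 log2 units in each library. The step from CXCL2 to CCL5 was from 2.41 to 2.35 and from 2.40 to 2.07 in the stable cells (SPRR1A and DsRed) and from 3.65 to 3.44 and from 3.74 to 3.59 in the transient cells (SPRR1A and GFP), and no spread between replicates is known against which to judge it.

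**Figure D1:**
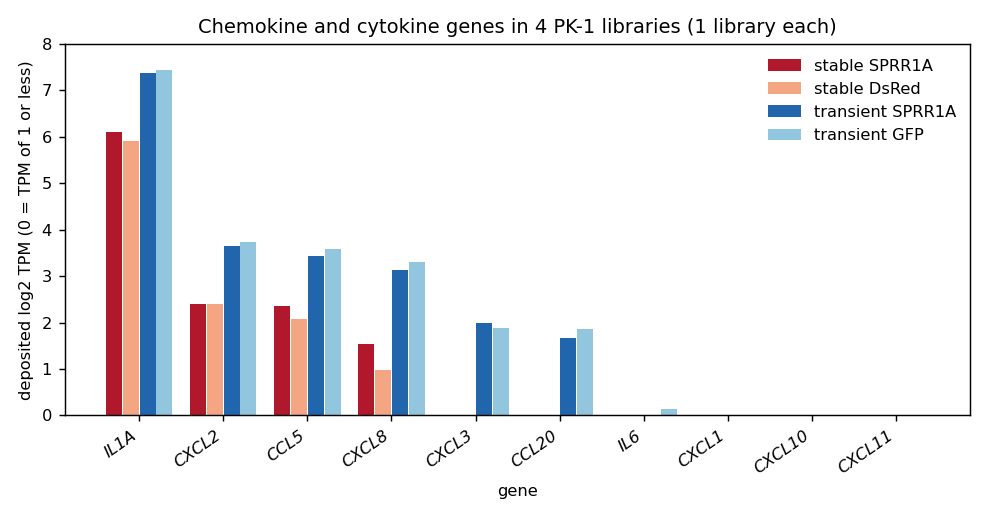
Deposited log2 TPM (vertical axis, with its floor at 0) of the 10 genes (horizontal axis, ordered by mean level) in the 4 libraries, 1 bar per library and no error bars because each condition has 1 library. IL1A stands highest at 5.92 to 7.44, CXCL3 and CCL20 have bars in the transient libraries only, and CXCL1, CXCL10 and CXCL11 have none.

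Among the neutrophil chemokines, CXCL2 was the highest. Its log2 TPM was 2.41 and 2.40 in the stable cells and 3.65 and 3.74 in the transient cells, so the stable libraries were level and both transient ones were higher. CXCL8, which encodes interleukin 8, was at 1.54 and 0.98 in the stable cells and at 3.14 and 3.30 in the transient cells, again with both transient libraries above both stable ones. CXCL3 was listed at 0 in both stable libraries and at 1.99 (SPRR1A) and 1.87 (GFP) in the transient ones. CXCL1 was listed at 0 in all 4 libraries, and its promoter is the closest match to that of CXCL2. All these genes lie on chromosome 4 of GRCh38. CXCL8 runs from 73740569 to 73743716, CXCL1 from 73869393 to 73871308, CXCL3 from 74036589 to 74038689 and CXCL2 from 74097040 to 74099195.

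Reads of CXCL1, CXCL2 and CXCL3 can match more than 1 of these genes, which makes the division between them uncertain. Of the different 50-base stretches in GENCODE 44 transcripts, 60 of 1313 (4.57%) of CXCL1 occurred in CXCL2 or CXCL3. The share was 193 of 1444 (13.4%) for CXCL2 and 139 of 2313 (6.01%) for CXCL3. Most of the stretches of CXCL1, which was listed at 0, were thus found in neither relative. CCL5 shared 213 of 1363 (15.6%), with transcripts of 361 other genes, and CXCL8, CXCL10, CXCL11, CCL20, IL6 and IL1A shared 0. How reads that match several genes were counted is not given in the sources used here.

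Of the remaining chemokines, CCL5 was above the floor in all 4 libraries and CCL20 in the transient ones only. The interferon-induced pair was at the floor. CCL5 was at a log2 TPM of 2.35 and 2.07 in the stable cells and of 3.44 and 3.59 in the transient cells. CCL20, which attracts CCR6-bearing T cells and dendritic cells, was listed at 0 in both stable libraries and at 1.67 (SPRR1A) and 1.85 (GFP) in the transient ones. For both genes the transient libraries were the higher ones. CXCL10 and CXCL11, on chromosome 4 from 76021118 to 76023497 and from 76033682 to 76036070, were listed at 0 in all 4 libraries. IL6 was listed at 0 in 3 libraries and at 0.14 in transient GFP cells, a TPM of 1.10. CCL5 lies on chromosome 17 from 35871491 to 35880360, CCL20 on chromosome 2 from 227813842 to 227817556, IL1A on chromosome 2 from 112773925 to 112784493 and IL6 on chromosome 7 from 22727200 to 22731998 of GRCh38.

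The first question was whether SPRR1A changed these genes in the stable model. Of the 10 genes, 0 were past 2-fold upwards and 0 downwards in SPRR1A cells relative to DsRed cells. Among the 13310 entities with a value over the floor in 1 library or both, 0.526% were higher and 0.421% lower. CXCL8 had the widest difference, a log2 difference of 0.57 or 1.48-fold from a TPM of 1.97 to 2.92. The log2 difference was 0.28 for CCL5, 0.18 for IL1A and 0.01 for CXCL2. Over these 4 genes, the only members above the floor in both libraries, the median log2 difference was 0.23, against 0.07 over all entities above the floor in both. The other 6 members were listed at 0 in both stable libraries. After centring, CXCL2 was at -0.05 and CXCL8, CCL5 and IL1A were at 0.51, 0.22 and 0.12.

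In the transient model, again 0 of the 10 genes were higher and 0 were lower by more than 2-fold in SPRR1A than in GFP cells, against 0.19% and 0.7% of 13717 entities (26 and 96). After centring the entities were 52 higher and 56 lower, with 0 members in either direction. The log2 difference was 0.11 for CXCL3, -0.06 for IL1A, -0.09 for CXCL2, -0.15 for CCL5, -0.16 for CXCL8 and -0.19 for CCL20. The median of these 6 genes was -0.12, compared with -0.19 over all entities above the floor in both libraries, and for 4 of the genes the sign depended on this shift. After centring, CXCL3 was at 0.30, IL1A at 0.12, CXCL2 at 0.09, CCL5 at 0.03, CXCL8 at 0.02 and CCL20 at -0.0038 on the log2 scale. IL6 was at 0.14 in GFP cells and at the floor in SPRR1A cells.

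**Figure D2:**
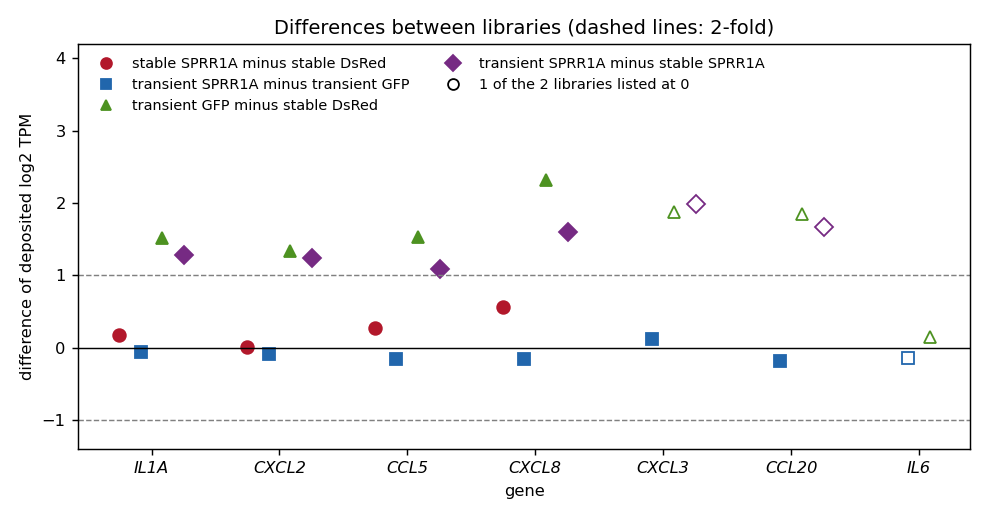
Difference of deposited log2 TPM (vertical axis) between pairs of libraries for the 7 genes above the floor in at least 1 library (horizontal axis), with 1 symbol per pair, open where 1 of the 2 libraries is listed at 0, and dashed lines at 2-fold. Differences between SPRR1A and its control lie between -0.19 and 0.57, where centring turns the sign of 5 genes in the transient pair (IL1A, CXCL2, CCL5, CXCL8 and IL6), and those between the models lie above 1 for 6 genes.

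Of the 7 genes above the floor in any library, 6 were higher in the transient than in the stable cells. CXCL3, CCL20 and IL6 were listed at 0 in both stable libraries, so they could differ only upwards in the transient ones. The 4 genes that could have gone either way were IL1A, CXCL2, CCL5 and CXCL8, and all were higher. CXCL8, at 0.98 in stable DsRed cells, was too near the floor to be called lower by more than 2-fold between the controls. Among the controls, transient GFP against stable DsRed, 6 of the 10 genes were higher by more than 2-fold (IL1A, CXCL2, CXCL3, CXCL8, CCL5 and CCL20) and 0 were lower, against 6.86% of 13761 entities higher and 0.661% lower. CXCL8 differed most of those above the floor in both libraries, by 2.32 on the log2 scale, from a TPM of 1.97 to 9.84. IL1A was 2.87-fold higher (log2 difference 1.52, from a TPM of 60.6 to 173.8), CCL5 2.87-fold (1.52) and CXCL2 2.53-fold (1.34). These 4 are all the members above the floor in both libraries, and each was past the threshold, whereas 6.1% of 12761 entities, those over the floor in both, were higher. CXCL3 and CCL20 reached a TPM of 3.66 and 3.61 with GFP and were listed at 0 with DsRed, so no fold is given for them. The members were chosen with earlier results of these data known, so the contrast with all entities is a description. This comparison of the controls and the stable one share the DsRed library.

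The SPRR1A libraries, which share no library with the pair of controls, gave the same 6 genes. All 6 were past 2-fold, with the transient library higher, and 0 members were lower, against 2.61% of 13549 entities higher and 0.974% lower (354 and 132). After centring there were 471 and 90, with the members' count still 6. CXCL8 was 3.02-fold higher (log2 difference 1.60), IL1A 2.43-fold (1.28), CXCL2 2.35-fold (1.24) and CCL5 2.13-fold (1.09). All 4 of these were past the threshold, compared with 2.2% of the 12787 entities over the floor in both. CXCL3 and CCL20 were at a TPM of 3.97 and 3.17 in the transient library and listed at 0 in the stable one. The median log2 difference of the 4 genes was 1.26 between the SPRR1A libraries and 1.52 between the controls, whereas that of all entities over the floor in both was -0.09 and 0.17. After centring, the 4 genes lay between 1.21 and 1.71 for the SPRR1A libraries and between 1.21 and 2.20 for the controls.

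**Figure D3:**
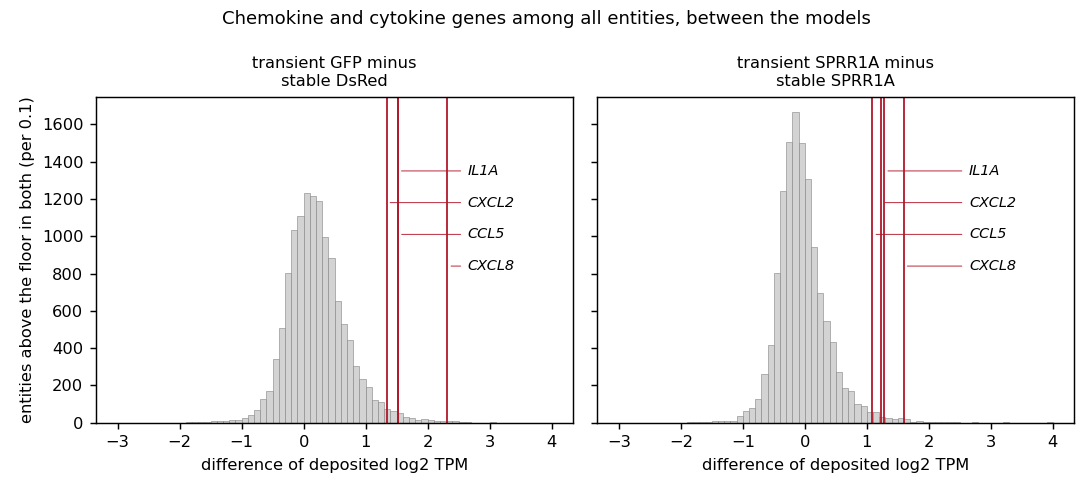
Number of entities (vertical axis, per 0.1 log2 unit) by difference of deposited log2 TPM (horizontal axis, values beyond the axis placed in the end bins) among entities above the floor in both libraries, for transient GFP minus stable DsRed (left) and transient SPRR1A minus stable SPRR1A (right). Red lines mark IL1A, CXCL2, CCL5 and CXCL8, which lie between 1.34 and 2.32 on the left and between 1.09 and 1.60 on the right.

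Plasmid transfection, the retroviral vector and the culture history differ together between the models. The fluorescent protein differs between the controls only, and the SPRR1A libraries differ in SPRR1A itself (a TPM of 1957 stable and 99031 transient). SPRR1A differs between the controls too, at a TPM of 1.68 with stable DsRed and 11.8 with transient GFP. Which of these goes with the differences was not tested, and within either pair they cannot be told apart. In bulk RNA, a larger share of cells expressing a gene and more RNA of that gene per cell cannot be told apart either. When only entities with both TPM values at 5 or more were kept, 2 members (IL1A and CXCL2) were left between the controls and both were past the threshold, against 3.21% of 9810 entities. Between the SPRR1A libraries 3 members (those and CCL5) were left and past it, against 1.12% of 9843 entities. CD68 was also higher in both transient libraries, at 4.91 and 4.89 against 4.09 and 3.99 in the stable ones, while the other 7 immune markers were listed at 0 throughout.

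The other chemokine ligands were nearly silent. Of 36 such genes, 32 were listed at 0 in all 4 libraries. CXCL16, a membrane-bound chemokine, was the highest, at 5.09, 5.03, 5.33 and 5.39, with no pair past 2-fold. CCL26, a ligand of CCR3 that attracts eosinophils, was at 0.80, 0.44, 1.98 and 2.77. It was past 2-fold between the models in both pairs, although on log2(TPM + 1) its difference between the SPRR1A libraries was 0.85. Between the controls 2 of the 4 above the floor in either library were higher by more than 2-fold, against 6.86% of all such entities. Between the SPRR1A libraries 1 of 3 was higher, against 2.61%, and 0 were lower in either pair. In both SPRR1A against control pairs the numbers past the threshold were 0, against at most 0.7% of all such entities in either direction.

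Of 27 other cytokine genes, 15 were listed at 0 in all libraries, among them TNF, IL33 and IFNB1, picked by name once their values were known. Between the controls 6 of the 12 above the floor in either library were higher by more than 2-fold, against 6.86% of all such entities. Between the SPRR1A libraries 6 of 10 were higher, against 2.61%, and 0 were lower in either pair. IL11, a cytokine of the interleukin 6 family, was listed at 0 in both stable libraries and at 2.15 (SPRR1A) and 2.42 (GFP) in the transient ones. CSF2, which encodes the growth factor GM-CSF, was at 1.34, 1.02, 3.31 and 3.14, and both transient libraries were the higher ones. IL23A, a subunit of interleukin 23, was at 1.44, 0.77, 2.58 and 2.76, and on log2(TPM + 1) its difference between the SPRR1A libraries was 0.90, under the threshold. IL1B, the secreted relative of IL1A and also picked in that way, was at 7.06, 6.66, 8.23 and 8.26, which put it above IL1A in each library.

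IL32, a proinflammatory cytokine, was the only gene of all these lists that passed 2-fold between SPRR1A and its control. Its log2 TPM was 1.57, 0.36, 2.58 and 2.64, which gave a difference of 1.21 in the stable model and of -0.05 in the transient model. The latter was 0.13 after centring. On log2(TPM + 1) the stable difference was 0.80 and no longer past the threshold. Over all entities above the floor in either stable library, 0.526% were higher by more than 2-fold and 0.421% lower. The call of IL32, found by looking over all these lists, is therefore a description only.

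The receptors that would answer the members within the same cells were largely at the floor. Of 15 receptors and binding proteins, 9 were listed at 0 in all 4 libraries. These were CXCR1, CXCR2, CXCR3, CCR1, CCR3, CCR6, ACKR1, IL1R1 and IL1R2, which include the signalling receptors CXCR2, CXCR3, CCR6 and IL1R1 introduced above. The genes above the floor were ACKR2, ACKR3, IL6R, IL6ST, IL1RAP and IL1RN. ACKR3, an atypical receptor that takes up CXCL11 and CXCL12, was at 3.34, 2.46, 4.77 and 4.87. IL1RN, the natural antagonist of interleukin 1, was at 4.33, 4.05, 5.42 and 5.59. IL6ST, the signalling chain for interleukin 6, had 4.79, 4.44, 5.17 and 5.53, and IL1RAP, the accessory chain of the interleukin 1 receptor, had 2.77, 2.26, 3.12 and 3.35. All 4 were highest in the 2 transient libraries. Of the 6 genes above the floor, 5 were higher by more than 2-fold between the controls, against 6.86% of all entities above the floor in either library. Between the SPRR1A libraries 2 were higher, against 2.61%, and 0 were lower in either pair. After centring, 2 of the 5 remained past 2-fold between the controls, since IL6ST and IL1RAP were then at 0.97 and IL6R, a receptor chain for interleukin 6, was at 0.92. Between the SPRR1A libraries IL6R was past the threshold after centring, which made 3.

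NF-kappaB subunits and kinases were expressed in all 4 libraries, all 8 above the floor. Between the controls 2 of them were higher by more than 2-fold and 0 lower, against 6.86% and 0.661% of all entities above the floor in either library. Between the SPRR1A libraries 0 passed in either direction, against 2.61% higher and 0.974% lower. RELB, a subunit of the noncanonical pathway that is itself an NF-kappaB target, was at 4.65, 4.43, 5.44 and 5.47. REL, another subunit, had 1.30, 0.79, 2.02 and 2.34. The difference of RELB between the controls was 1.04, and 0.92 after centring, below the threshold.

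The inhibitors and feedback targets of NF-kappaB were all above the floor in every library (13 of 13). Between the controls 5 of the 13 were higher by more than 2-fold and 0 lower, and between the SPRR1A libraries 3 were higher and 0 lower. Over all entities above the floor in either library of the pair, 6.86% and 2.61% were higher. TNFAIP3, the deubiquitinase A20 that shuts off NF-kappaB signalling, was at 4.64, 4.45, 6.05 and 6.26. BIRC3, a ubiquitin ligase that inhibits apoptosis, was at 2.07, 1.45, 3.08 and 3.15. CYLD, a deubiquitinase, had 2.47, 2.01, 3.51 and 3.65, and NFKBIZ, a nuclear inhibitor protein that also acts as a coactivator, had 3.37, 3.42, 4.35 and 4.70. Between the SPRR1A libraries, BIRC3 (0.86) and CYLD (0.93) were under the threshold on log2(TPM + 1), and NFKBIZ was past it after centring (1.09). The median log2 difference of the list was 0.72 for the controls and 0.50 for the SPRR1A pair, compared with 0.17 and -0.09 over all entities over the floor in both.

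Among 10 AP-1 and C/EBP factors, 3 were higher by more than 2-fold between the controls, 2 were higher between the SPRR1A libraries, and 0 were lower. Over all entities above the floor in either library of the pair, 6.86% and 2.61% were higher. ATF3, a stress-induced member of the AP-1 and CREB families, was at 2.73, 2.64, 6.06 and 6.19. Its log2 difference of 3.56 between the controls was larger than that of any member above the floor in both of these libraries. FOS, an immediate early AP-1 subunit, had 1.55, 1.50, 3.42 and 3.33, and FOSL2, a related subunit, had 5.17, 4.95, 5.96 and 6.18. Of 9 IRF and STAT factors 1 was higher between the controls, IRF9, a subunit of the interferon-activated complex ISGF3, at 5.03 with GFP against 3.92 with DsRed. Its difference of 1.10 was 0.98 after centring, and between the SPRR1A libraries 0 of the 9 passed in either direction. IRF3, the factor activated by nucleic acid sensing, lay between 6.64 and 6.83 in all libraries.

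Factors that set the decay of AU-rich cytokine mRNA, 7 in all, were all above the floor. Of these, 0 were past 2-fold in any of the 4 comparisons. Over all entities above the floor in either library, at most 6.86% were past it in a given direction. A count of 0 of 7 thus does not set these factors apart from other entities. ZFP36L1, which promotes decay, lay between 7.09 and 7.48. HNRNPD, which binds the same AU-rich elements, was at 8.54, 8.64, 7.92 and 8.10, and so was lower in both transient libraries.

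**Figure D4:**
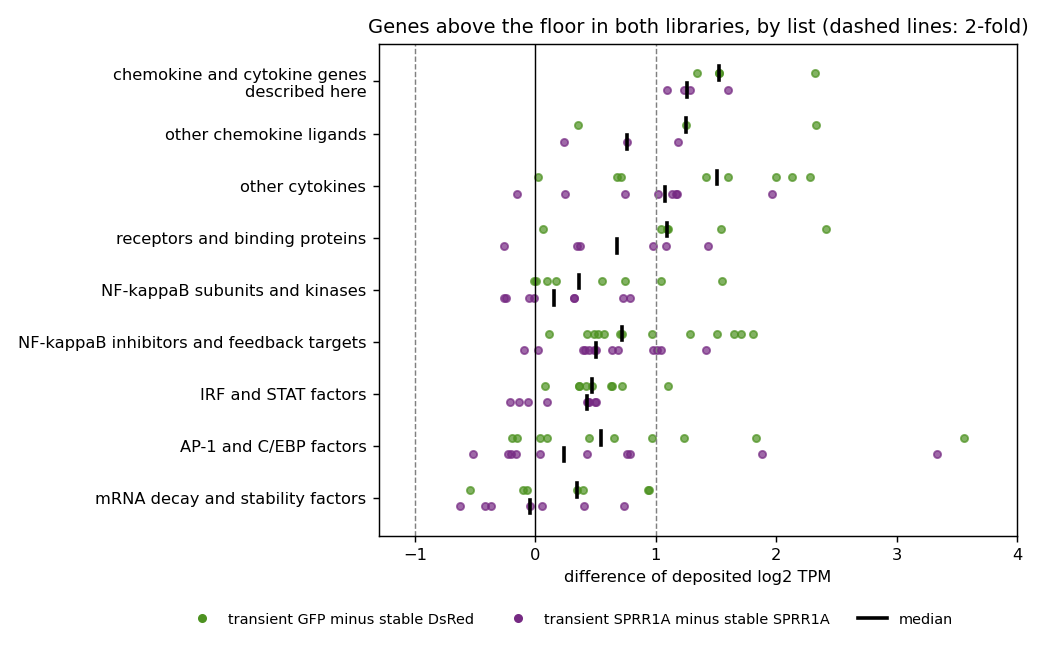
Difference of deposited log2 TPM (horizontal axis) for each gene above the floor in both libraries, by list (vertical axis), for transient GFP minus stable DsRed (green) and transient SPRR1A minus stable SPRR1A (purple), with black bars for the median and dashed lines at 2-fold. The 4 members have medians of 1.52 and 1.26, and the NF-kappaB inhibitors and feedback targets have medians of 0.72 and 0.50.

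The entities most like the members in pattern were searched among 10572 others that reached a TPM of 5 in 1 library or more. The profile was the mean, over IL1A, CXCL2, CCL5 and CXCL8, of the log2 TPM centred on each gene's own mean, and likeness was the Euclidean distance over the 4 libraries. The closest were YPEL5 (distance 0.04), CTH (0.06) and GPNMB (0.08). YPEL5 was at 4.27, 4.06, 5.56 and 5.71. CTH, an enzyme of cysteine synthesis, was at 2.12, 1.80, 3.45 and 3.53, and GPNMB, a transmembrane glycoprotein, had 2.38, 2.14, 3.77 and 3.89. With only 4 libraries many entities can share such a pattern.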

How the data were processed

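RNA libraries (TruSeq Stranded mRNA) of 4 PK-1 conditions, 1 each, were sequenced in paired-end mode. Alignment by the authors used Strand NGS at default settings and the hg38 transcriptome. The deposited values are log2 TPM per gene. Software version, annotation release and read length are not given in the sources used here. Counts were not used, so no interval for counting error can be given.

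Log2 differences between libraries were computed over 53826 entities, with the study's 2-fold rule as the threshold and no test. The members and the other lists were chosen with earlier results of these data known. All members are named, as are, from each other list, up to 4 genes past 2-fold that reached a TPM of 5 in the higher library, taken by size of difference and filled up to 2 by mean level. Genes outside this rule were picked after their values were seen and are marked so, except for the receptors, all of which are listed apart from 1 gene that is not reported here and was left out of the counts. Alternatives were log2(TPM + 1), log2(TPM + 0.1), a minimum TPM of 5 in each library compared, centring on the median log2 difference of such entities, a TPM total without SPRR1A, and a TPM of 0 for entities listed at 0. Positions and promoters came from RefSeq (GRCh38.p14), with 9 of 10 members matched to a promoter, and transcripts came from GENCODE 44. Promoters were aligned globally. The code for the calls was run on simulated shifts larger than the threshold, which checks the code and not the calls made here. Python 3.11.15, numpy 2.4.6, pandas 2.3.3, Biopython 1.88 and matplotlib 3.10.9 were used.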

Additional observations from a re-analysis of the deposited data

Results flagged for a closer look

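For 4 members the difference between SPRR1A and its control had opposite signs in the stable and the transient model. The log2 difference was 0.57 and -0.16 for CXCL8, 0.28 and -0.15 for CCL5, 0.18 and -0.0616 for IL1A, and 0.01 and -0.093 for CXCL2. Whether the models differ was not tested, because each condition has 1 library. When each pair was centred on the median of its well expressed entities, the values became 0.51 and 0.02 for CXCL8, 0.22 and 0.03 for CCL5, 0.12 and 0.12 for IL1A, and -0.05 and 0.09 for CXCL2, so that 1 of the 4 genes, CXCL2, kept opposite signs.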

How the results depend on the processing

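No paired analysis was possible because every condition was sequenced in 1 library, and for the same reason no library could be left out. With no spread between replicates, a value was taken as changed when it crossed the 2-fold threshold, and a count when it moved by over 1.5 times. The counts of members past 2-fold between SPRR1A and its control were 0 in both models and directions under every alternative run but 1. With a TPM of 0 for entities listed at 0, on log2(TPM + 1), 1 member (IL6, -1.07) was lower in the transient SPRR1A library than in its control. IL6 was then also higher between the controls (1.07), which made 7 members there. Keeping only entities with both TPM values at 5 or more left 2 of the 6 higher members for the controls and 3 for the SPRR1A libraries, which follows from the fewer genes kept. The other alternatives gave 6 members, except that on log2(TPM + 1) CCL5 was at 0.96 between the SPRR1A libraries, which left 5. After centring, 4.97% of entities were higher for the controls and 3.48% for the SPRR1A libraries. IL32 between the SPRR1A libraries was 1.02, and 0.82 on log2(TPM + 1). No difference past 2-fold changed its sign under these alternatives. Values near the floor are limited by it, and depth is unknown.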
